A study of Mus musculus with 4 samples.

Results

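Integrins and laminins form the best known link between a muscle cell and the sheet of matrix around it, and their genes are described here in the adult mouse heart. The members were chosen by symbol alone: every row of the count files named as an integrin alpha chain (Itga followed by a number or by d, e, l, m, v or x), an integrin beta chain (Itgb followed by a digit) or a laminin alpha, beta or gamma chain (Lama, Lamb or Lamc followed by a digit). This gave 37 genes of 23420 in all, made up of 18 integrin alpha, 8 integrin beta, 5 laminin alpha, 3 laminin beta and 3 laminin gamma chains. The data are counts of polyadenylated RNA from 4 sequencing libraries of heart, a single group of wild-type C57BL/6J mice labelled male and 12 weeks old, with no treatment and no second group. Per the labels' protocols the RNA came from the apex of the ventricles, so atrial tissue is not described, and the labels do not say outright that each library is a different animal. Any p-value below therefore measures the spread between these libraries, which may in part be technical.

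A laminin is a cross-shaped secreted protein built from an alpha, a beta and a gamma chain, and it polymerises into the basement membrane that wraps each cardiomyocyte, capillary and smooth muscle cell. An integrin is a receptor made of an alpha and a beta chain that spans the cell membrane, binds matrix outside and connects to the actin cytoskeleton inside through talin, kindlin and integrin-linked kinase. The alpha chain largely decides what is bound: Itga3, Itga6 and Itga7 serve laminin receptors, Itga1, Itga2, Itga10 and Itga11 collagen receptors, Itga5, Itga8, Itgav and Itga2b receptors of fibronectin and related ligands, and Itgad, Itgae, Itgal, Itgam and Itgax belong to leukocytes. In striated muscle the pair of Itga7 with Itgb1 is the main laminin-binding integrin, and loss of the laminin chain Lama2 causes a congenital muscular dystrophy.

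Levels are given as CPM, the count of a gene per 1000000 counts over all genes of its library, and, wherever different genes are compared, as CPM per kilobase of the gene's exons, since long transcripts collect more reads. Values after ± are SDs over the 4 libraries. The libraries held 10523709 to 15359296 gene counts, and a gene with no reads may still lie anywhere under 3 counts, which is 0.195 to 0.285 CPM depending on the library. These limits and the Poisson limits below cover counting error only. Libraries 2 and 3 went against their label: Xist, the RNA of the inactive X, had 5, 1897, 1806 and 19 counts in libraries 1 to 4, and the Y-linked Ddx3y had 341, 0, 1 and 437. Values of libraries 1 and 4 alone are therefore given for the ratios, and the members of at least 1 CPM, where they differed most. All 8 cardiomyocyte markers searched (Myh6, Myl2, Tnnt2, Tnni3, Actc1, Ryr2, Pln and Nppa) were above 100 CPM in each library. Markers of fibroblasts summed to 927 ± 53.7 CPM and those of smooth muscle and pericytes to 1293 ± 63.2 CPM. In both lists 8 of 8 genes were at 1 CPM or more. Abcc9 alone gave 510 ± 19.1 CPM, the largest part of the smooth muscle and pericyte sum. Markers of Schwann cells summed to 59.6 ± 4.13 CPM, with 6 of 8 at 1 CPM or more. In bulk tissue, fewer cells of a type and less RNA per cell cannot be told apart.

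The 5 chains taken as markers of this group of genes were all above 100 CPM in each library, and so were Lama5, Lamb1, Lama4, Itgb5 and Itga5. In CPM, Lamb2 had 826, 772, 808 and 772 in libraries 1 to 4, Lamc1 459.8, 410.3, 461 and 461, Itga7 277, 319, 287 and 276, Lama2 215, 197, 254 and 226, and Itgb1 177, 148, 166 and 177. Library 2 lay apart from the other 3 for Lamc1, where it was the lowest. The highest value was between 1.07 and 1.29 times the lowest for each of the 10 members with a mean of at least 100 CPM. This range makes no allowance for their high counts, and spread against genes of like abundance is given below. Of all 37 members, 36 had at least 1 count in every library, 30 had a mean of at least 1 CPM, 17 reached 10 CPM and 10 reached 100 CPM. The 11 laminin chains summed to 2211, 2083, 2290.45 and 2157 CPM in libraries 1 to 4 and the 26 integrin chains to 985, 1007, 969.9 and 997 CPM. Laminin chains thus drew more counts than integrin chains in each library, before any allowance for length.

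**Figure D1:**
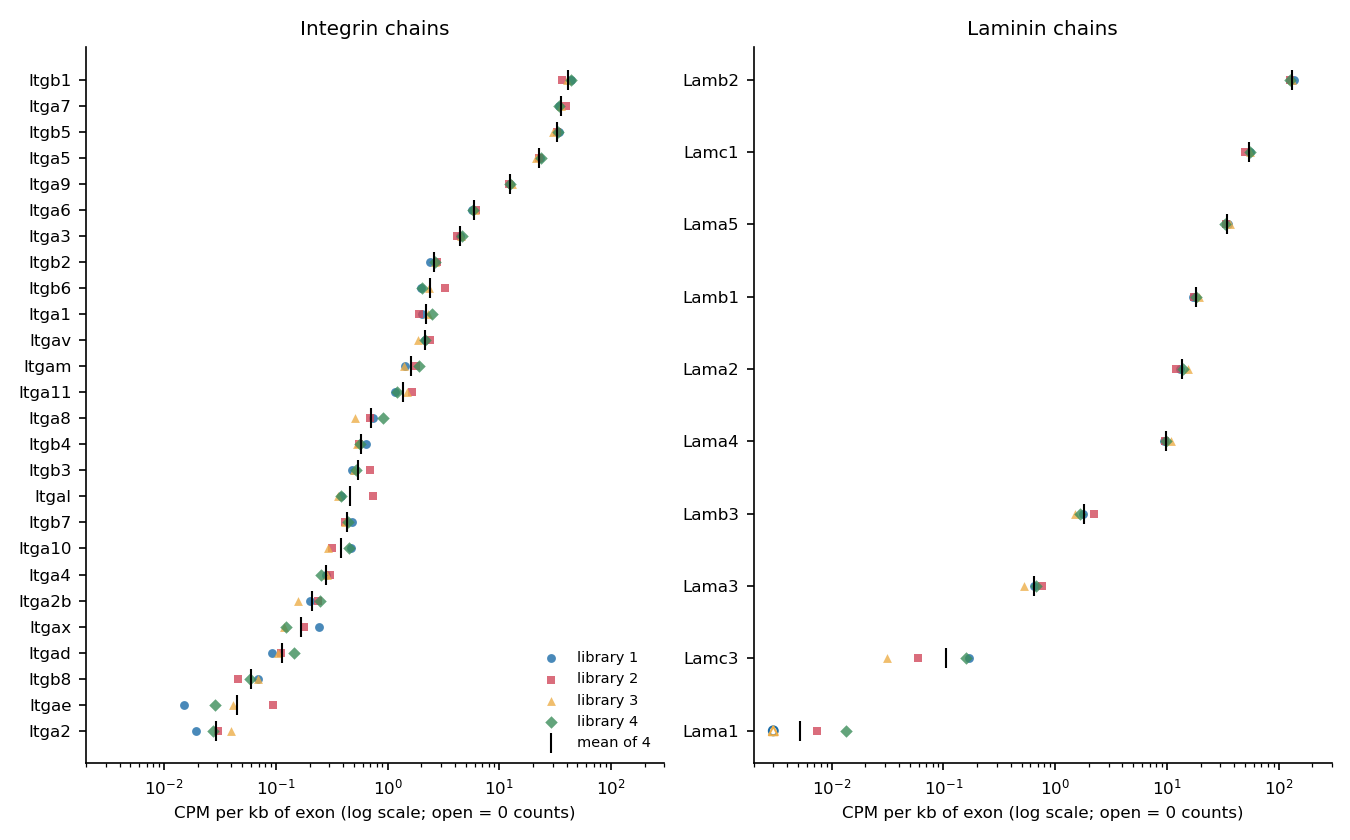
Level of the 26 integrin chains and 10 of the laminin chains in CPM per kilobase of exon, on a log axis, with 1 symbol per library, a black bar at the mean of 4, and open symbols at the left edge for 0 counts. Lamb2, Lamc1, Itgb1, Itga7 and Lama5 lead, with library symbols close together, while symbols spread out below 1 CPM per kilobase.

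Promoter sequence is shown for 4 members, to set abundant integrin and laminin genes beside a gene with hardly any counts. They are the highest integrin alpha, integrin beta and laminin chain and the lowest member among 11 with a single RefSeq start lying outside the gene as GENCODE draws it. They are not the most abundant of all members, since Lamb2 and Lamc1 had more CPM than Lama5, and Itga7 more than Itga5. RefSeq windows (GRCm38.p6) were found for 23 of the 37 members, 26 windows in all, and each line gives the 250 bases before the start, 5′ to 3′ on the gene's strand. Capitals mark the GC box, searched as GGGCGG on both strands. Lama5 lies at chr2:180225860-180226109 (minus strand), Itgb1 at chr8:128685404-128685653 (plus), Itga5 at chr15:103366792-103367041 (minus) and Itga2 at chr13:114932101-114932350 (minus).
Lama5: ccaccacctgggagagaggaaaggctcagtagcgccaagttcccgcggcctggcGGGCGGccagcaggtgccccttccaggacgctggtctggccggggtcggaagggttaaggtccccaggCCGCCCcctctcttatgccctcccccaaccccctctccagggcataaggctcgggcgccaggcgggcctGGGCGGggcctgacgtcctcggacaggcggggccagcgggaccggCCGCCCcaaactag
Itgb1: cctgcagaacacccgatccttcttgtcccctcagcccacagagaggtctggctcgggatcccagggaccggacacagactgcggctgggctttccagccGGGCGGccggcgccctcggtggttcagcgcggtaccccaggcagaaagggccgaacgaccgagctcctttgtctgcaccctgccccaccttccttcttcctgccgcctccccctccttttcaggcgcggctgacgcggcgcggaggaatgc
Itga5: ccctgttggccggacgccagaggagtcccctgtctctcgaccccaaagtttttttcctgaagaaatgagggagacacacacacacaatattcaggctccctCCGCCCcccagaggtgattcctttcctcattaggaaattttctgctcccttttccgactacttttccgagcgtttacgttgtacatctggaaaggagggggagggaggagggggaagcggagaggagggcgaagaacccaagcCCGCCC
Itga2: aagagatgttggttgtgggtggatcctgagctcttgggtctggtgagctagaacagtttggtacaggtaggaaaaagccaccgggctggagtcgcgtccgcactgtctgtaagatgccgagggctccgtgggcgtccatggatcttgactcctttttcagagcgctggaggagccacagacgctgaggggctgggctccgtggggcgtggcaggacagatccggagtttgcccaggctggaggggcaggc

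Lama5 held 4 GC boxes in this window, Itga5 2, Itgb1 1 and Itga2 0. Lamb2, the member with the most CPM, also held 0, in a window of 43.6% G and C, and Lama2 held 0 at 47.2%. Both of those windows overlap the gene as GENCODE draws it and were therefore not printed. The base composition was 72.4% G and C for Lama5, 68.0% for Itgb1, 55.6% for Itga5 and 60.8% for Itga2, against a median of 52.4% over all 32851 RefSeq windows. A GC box was present in 9 of the 26 members' windows and in 32.7% of all windows. The TATA box, searched as TATAAA on both strands, was in 0 of the 26 and in 12.4% of all. A match is only a run of letters and no sign that a factor binds there.

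Among laminin alpha chains, Lama5 (chromosome 2, 180176373 to 180225859) was the most abundant. Lama5, a long chain of blood vessel and epithelial basement membranes, had 399, 384, 419 and 375 CPM, or 34.6 ± 1.70 CPM per kilobase. Lama2, the chain of the muscle basement membrane (chromosome 10, 26980036 to 27619758), had 13.7 ± 1.46 CPM per kilobase. Lama4, known from capillaries (chromosome 10, 38965515 to 39110188), had 114, 115, 131 and 118 CPM, or 9.88 ± 0.648 CPM per kilobase. Library 3 was the highest for all 3 of these chains. Their order was the same in each library, and the means kept it with the longest transcript as length, where Lama5 stood at 34.6, Lama2 at 23.2 and Lama4 at 19.7 CPM per kilobase. The endothelial markers searched summed to 1269, 1274, 1303 and 1302 CPM in libraries 1 to 4, with all 8 at 1 CPM or more, and the cardiomyocyte markers to between 85391.5 and 96127 CPM. Which cells the chains came from was not tested.

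The beta and gamma positions were each dominated by 1 gene. Lamb2, the beta chain of mature muscle and synaptic basement membranes (chromosome 9, 108479736 to 108490530), stood at 131 ± 4.45 CPM per kilobase and ranked 113th of all genes by CPM. Lamb1, the more widespread beta chain (chromosome 12, 31265234 to 31329644), had 170.4, 172, 193 and 179 CPM, or 18.02 ± 1.06 CPM per kilobase. Lamc1, the gamma chain of nearly all laminins (chromosome 1, 153218922 to 153332786), stood at 54.2 ± 3.04 CPM per kilobase. Per kilobase, Lamb2 made up 86.8 ± 0.632% of the 3 beta chains and Lamc1 98.0 ± 0.258% of the gamma chains. The alpha chains split into 58.9 ± 1.43% Lama5, 23.2 ± 1.38% Lama2 and 16.8 ± 0.414% Lama4, with Lama3 at 1.12 ± 0.223%. A trimer needs equal numbers of the 3 kinds of chain, whereas these RNAs were unequal: beta chains summed to 2.56 ± 0.106 times and gamma chains to 0.941 ± 0.0495 times the alpha chains per kilobase. With the longest transcript as length these ratios were 2.23 ± 0.102 and 0.774 ± 0.0404. RNA levels do not give the amounts of protein.

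Lama3 and Lamb3, laminin chains typical of epithelia, were present at low levels. Lama3 had 7.01, 8.19, 5.61 and 7.16 CPM and Lamb3 11.8, 14.7, 9.98 and 11.1 CPM in libraries 1 to 4. Both were highest in library 2, and both stood far below the muscle and vessel chains. The epithelial markers searched (Epcam, Cdh1, Krt5, Krt14, Krt8, Krt18, Krt19 and Krt7) summed to 1.32, 0.790, 0.950 and 1.04 CPM, with 0 of 8 at a mean of 1 CPM, Epcam at 0, 1, 0 and 0 counts and Cdh1 at 0, 0, 0 and 2. Lamc3, a gamma chain of retina and brain vessels, had 15, 5, 2 and 15 counts, 1.04, 0.359, 0.190 and 0.977 CPM, so libraries 1 and 4 were above libraries 2 and 3. Lama1, the alpha chain of the embryonic basement membrane, had 0, 1, 0 and 2 counts, a pooled level of 0.0114 to 0.162 CPM (exact Poisson limits of 95%).

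Laminin-binding integrin alpha chains were led by Itga7 (chromosome 10, 128933818 to 128958282), the alpha chain of striated muscle, at 35.8 ± 2.48 CPM per kilobase. Itga6, widespread in vessels and epithelia, had 50.9, 55.4, 54.6 and 52.2 CPM, or 5.90 ± 0.233 CPM per kilobase. Itga3, also a receptor chain for Lama5-type laminins, had 25.3, 23.9, 25.9 and 26.5 CPM, or 4.45 ± 0.200 CPM per kilobase. The 3 together came to 46.1 ± 2.51 CPM per kilobase, of 91.1 ± 2.62 for all 18 alpha chains. Itga7 alone was 39.3 ± 1.73% of the alpha chains. With the longest transcript as length, which for Itga7 is 4020 bases against 8092 for all its exons, that share was 50.7 ± 1.75%.

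Receptor chains for fibronectin and related ligands came next. Itga5, the fibronectin receptor chain (chromosome 15, 103344286 to 103366763), had 115, 111, 105 and 115.5 CPM, or 22.6 ± 0.958 CPM per kilobase. Itgav, which binds vitronectin and activates latent TGF-beta, had 23.5, 25.6, 19.95 and 23.3 CPM, or 2.15 ± 0.216 CPM per kilobase. Itga8, an alpha chain of mesenchymal and smooth muscle cells, had 5.48, 5.17, 3.801 and 6.64 CPM. Itga2b, the platelet chain, had 16, 18, 9 and 21 counts, and the platelet markers searched summed to 10.9 to 12.6 CPM, with 2 of 8 (Pf4 and Gp1ba) at 1 CPM or more and Gp6 at 0 counts in all 4 libraries. Of this group, Itga5 was therefore the only chain above 100 CPM.

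The remaining alpha chains held 1 abundant gene, Itga9. Itga9, a receptor for tenascin, VCAM and other ligands (chromosome 9, 118606690 to 118901003), had 96.3, 94.1, 101 and 96.0 CPM, or 12.6 ± 0.353 CPM per kilobase, the third highest alpha chain. Its relative Itga4, carried by lymphocytes and monocytes, had 3.96, 4.24, 3.99 and 3.52 CPM. Of the collagen receptors, Itga1 had 38.2, 35.8, 42.6 and 46.2 CPM, Itga11, a fibroblast chain, 5.97, 8.55, 7.70 and 6.19 CPM, and Itga10, a chain of cartilage, 2.43, 1.65, 1.52 and 2.34 CPM. Itga2, the collagen receptor chain of platelets and epithelia, had 2, 3, 3 and 3 counts, at or under the floor of 3 counts in each library. In GENCODE M21, 33.5% of the exon bases of Itga10 are shared with other genes, and its count is uncertain for that reason.

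Leukocyte integrins were low, each under 10 CPM. Itgb2, the beta chain shared by most of them, had 7.29, 8.41, 8.08 and 8.07 CPM, and Itgam, the chain of macrophages and neutrophils, 7.15, 8.98, 7.03 and 9.64 CPM. Itgal, the chain of LFA-1 on lymphocytes, had 2.50, 4.81, 2.38 and 2.54 CPM, with library 2 well above the other 3. The T cell marker Cd3e had 0.208, 0.934, 0.380 and 0.260 CPM in the same libraries, again highest in library 2. The pan-leukocyte Ptprc had 5.20, 6.47, 5.42 and 4.36 CPM, also highest in library 2. Over the 7 leukocyte markers found the sum was 163, 144, 151 and 164 CPM, lowest in library 2. Most of that sum came from Csf1r, at a mean of 72.2 CPM, and Lyz2, at 66.7 CPM. Of the 7 markers, 4 reached a mean of 1 CPM, and S100a8 had 1, 0, 0 and 1 counts. The part of leukocytes in the Itgal value was not tested. Itgax, Itgad and Itgae were each under a mean of 1 CPM, at 0.799 ± 0.287, 0.511 ± 0.0999 and 0.205 ± 0.158 CPM, and Itgb7, the partner of Itgae and Itga4, stood at 1.21 ± 0.0836 CPM. For Itgam, 68.7% of exon bases are shared with other genes in GENCODE M21, and its count is uncertain.

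Among beta chains, Itgb1 and Itgb5 together made up most of the RNA. Itgb1, the partner of most alpha chains in muscle (chromosome 8, 128685654 to 128733200), stood at 40.9 ± 3.37 CPM per kilobase, 51.0 ± 2.60% of the 8 beta chains. Itgb5, which pairs with Itgav (chromosome 16, 33829665 to 33949338), had 121, 117, 107 and 118 CPM, or 32.6 ± 1.76 CPM per kilobase, 40.7 ± 1.61% of the beta chains. Its only known partner was low beside it, since Itgav stood at 2.15 ± 0.216 CPM per kilobase. Itgb3, the beta chain of platelets and of growing vessels, had 2.84, 4.10, 2.95 and 3.06 CPM, Itgb4, the beta chain of hemidesmosomes, 4.51, 3.88, 3.71 and 3.97 CPM, and Itgb8 11, 7, 8 and 10 counts. Itgb6, a partner of Itgav known from epithelia (chromosome 2, 60598292 to 60722643), had 14.1, 23.2, 16.5 and 14.5 CPM. Library 2 was the highest for Itgb6, as it was for Lama3 and Lamb3, with the epithelial markers at the low levels given above. All alpha chains together came to 1.14 ± 0.0736 times all beta chains per kilobase, or 1.63 ± 0.116 times with the longest transcript as length.

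**Figure D2:**
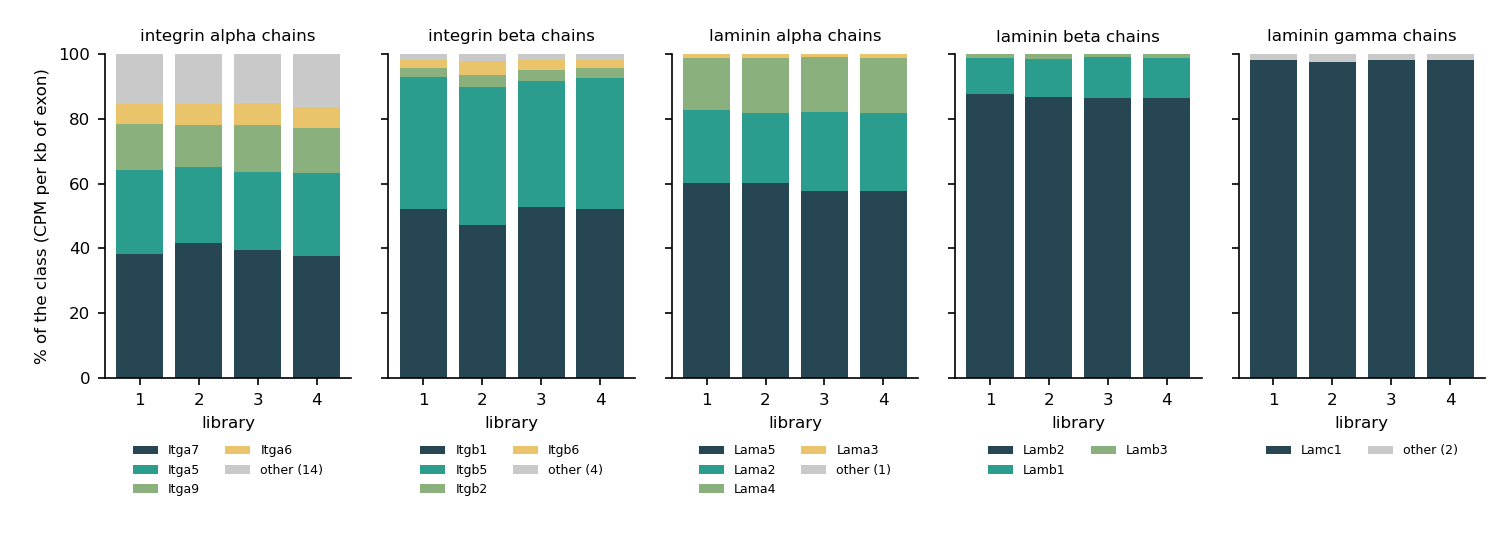
Share of each chain in its class, in percent of the class total of CPM per kilobase of exon, as stacked bars for libraries 1 to 4, with chains of small share pooled as other. Itga7, Itgb1, Lama5, Lamb2 and Lamc1 lead their classes in each of the 4 libraries.

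The makeup of each class was then put as ratios of paired chains within a library, on counts per kilobase with 0.5 added. An exact permutation test that flips the sign of each library's log ratio (two-sided) was run on 13 pairs; with 4 libraries the smallest p it can give is 0.13 (rounded). The direction was the same in 4 of 4 libraries for all 13 pairs, and each had an exact permutation p of 0.13, also 0.13 after Benjamini-Hochberg adjustment over the 13, so none could pass 0.05. Itga7 exceeded Itga6 by 6.05-fold, a log2 ratio of 2.60 ± 0.06, and Itga3 by 8.03-fold (log2 3.005 ± 0.16). Itga7 exceeded Itga5 by 1.58-fold, Itga5 exceeded Itgav by 10.5-fold and Itga9 exceeded Itga4 by 44.5-fold. Itgb1 exceeded Itgb5 by 1.25-fold (log2 0.33 ± 0.13), with 1.10-fold in the lowest library, and Itgb5 exceeded Itgb3 by 59.3-fold.

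Among laminins, Lamb2 exceeded Lamb1 by 7.25-fold (log2 2.86 ± 0.09) and Lama2 exceeded Lama4 by 1.38-fold (log2 0.46 ± 0.08), while Lama4 was at 0.285 times Lama5 (log2 -1.81 ± 0.06). Lamc1 exceeded Lamc3 by 583-fold, from 315 to 1429.5-fold between libraries, on 2 to 15 counts of Lamc3. In libraries 1 and 4 alone it was 325-fold. The highest value, in library 3, rests on 2 counts of Lamc3, which without the added 0.5 give 1787-fold with exact binomial limits (95%) of 494 and 14758. Sizes depended on the length used, and directions did not. With the longest transcript, Itga7 over Itga3 became 13.8-fold, Itga7 over Itga5 2.85-fold, Itga6 over Itga3 2.37-fold in place of 1.33, Lamb2 over Lamb1 4.57-fold and Lama4 over Lama5 0.569. For Itga1 over Itga11 the fold was 1.58 per kilobase of exon, 2.60 with the longest transcript and 5.74 with no length scaling. Per kilobase of exon it ran from 1.15 to 2.05 between libraries and was 1.90 in libraries 1 and 4 alone. In those libraries Itgb5 over Itgb3 was 66.6-fold.

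**Figure D3:**
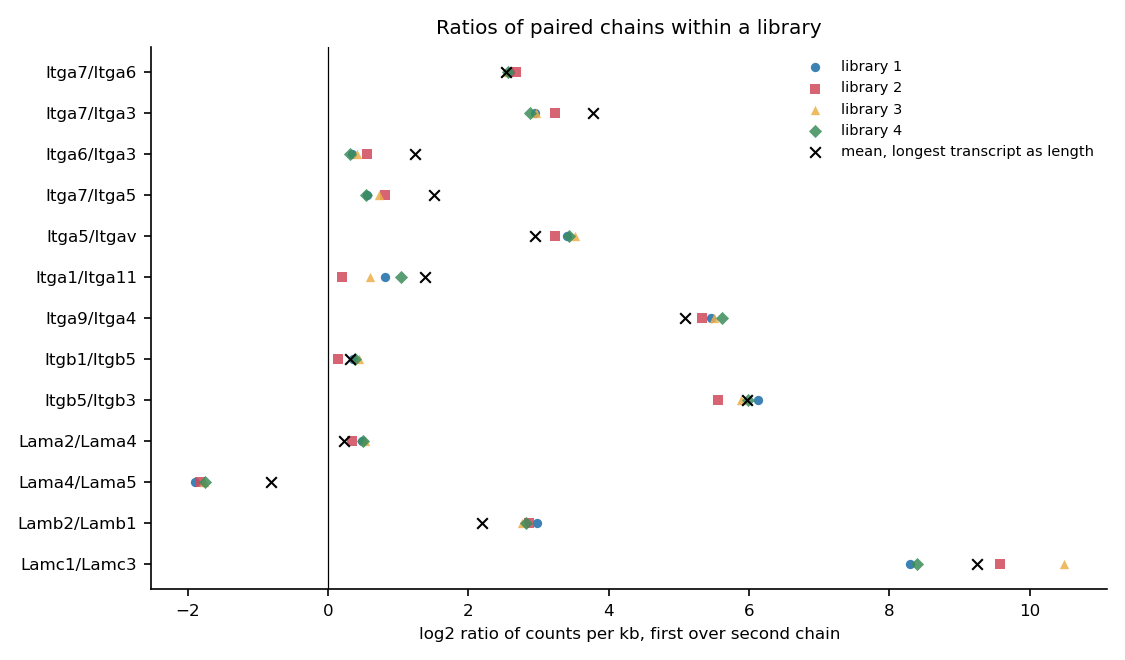
Log2 ratio of counts per kilobase of exon, first over second chain, for 13 pairs, with 1 symbol per library and a cross for the mean with the longest transcript as length. All 4 symbols of a pair lie on the same side of 0, and the widest spread is that of Lamc1 over Lamc3.

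Whether any chain varied more between hearts than genes of its abundance was tested with edgeR's quasi-likelihood fit over the 12360 genes that averaged 1 CPM or more. Of these, 49 (0.396%) were called at an adjusted p under 0.05. Of the 30 members tested, 0 were called, and 1 had an unadjusted p under 0.05 (3.33%, against 5.96% of all tested genes). The other tools also called 0 of 30: the residual variance of limma-voom called 8 genes in all (0.0647%) and the dispersion outliers of DESeq2 were 129 (1.04%). The other 7 members (Itga2, Itgad, Itgae, Itgax, Itgb8, Lama1 and Lamc3) were below 1 CPM and not tested. The coefficient of variation had a median of 8.44% over the 30 tested members and 9.60% over all tested genes, and 16 of the 30 (53.3%) were under 10%, against 52.3% of all. The coefficient of variation over its counting error had a median of 1.73 for the members and 1.41 for all. That ratio does not allow for level, since counting error falls as counts rise. Allowing for level, the comparison of medians had the other sign. The log2 of the variance over its trend had a median of 0.15 for the members and -0.23 for all.

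**Figure D4:**
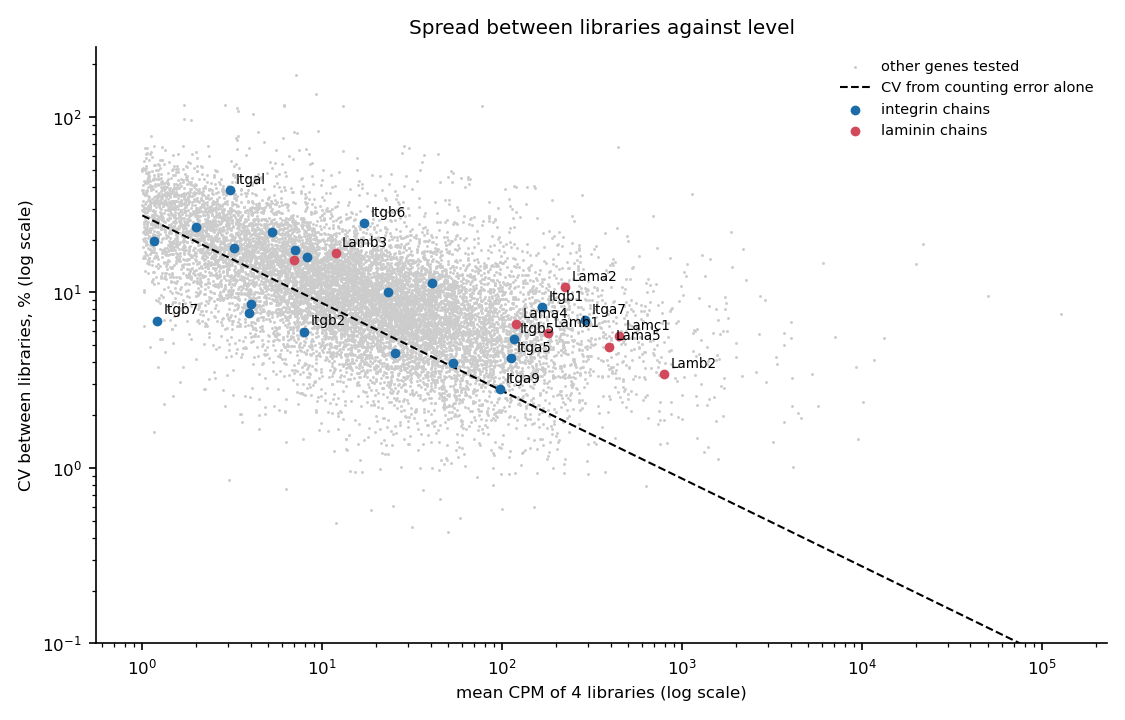
Coefficient of variation over 4 libraries against mean CPM, both on log axes, for 12360 tested genes in grey, 21 integrin chains in blue and 8 laminin chains in red, with a dashed line for the value that counting error alone gives. Itgb6 lies above most genes of its level, and Itga9 lies on the line.

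The member with the smallest p was Itgb6, with an unadjusted p of 0.0157 and an adjusted p of 0.548 in edgeR, at 23.2 CPM in library 2 and 14.1 to 16.5 CPM in the other 3. Lama2 followed with a coefficient of variation of 10.7%, against 1.84% from counting error alone, and an adjusted p of 0.901 in edgeR. Lama2 was lowest in library 2 and highest in library 3. Itgal had an adjusted p of 0.906 in edgeR. At the other end, Itga9 varied by 2.80%, close to the 2.79% of counting error, Lamb2 by 3.41%, Itga6 by 3.95% and Itga5 by 4.24%. The low Itgb7 varied by 6.90%, under the 24.9% that counting error alone would give, a value that 4 libraries estimate only loosely.

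Library 2 held the highest value for 12 of the 30 tested members, and for 28.5% of all tested genes. Among them were Itga4, Itga6, Itga7, Itga11, Itgal, Itgav, Itgb2, Itgb3, Itgb6, Lama3 and Lamb3. Library 3 held the lowest value for 12 of the 30, and for 33.4% of all. In libraries 1 and 4 alone the mean level lay within 10% of the mean of all 4 for 24 of the 30 members, and within 6.05% for each of the 10 members of at least 100 CPM. The 6 others included Itga10 (20.1% higher in libraries 1 and 4), Itga8 (14.9% higher), Itgal (-17.6%), Itgb6 (-16.4%) and Itga11 (-14.4%). Because the mean of all 4 includes libraries 1 and 4, these differences are smaller than the gaps between libraries 1 and 4 and libraries 2 and 3. Itgb6 averaged 14.3 CPM in libraries 1 and 4 and 19.9 in libraries 2 and 3, Itga10 2.39 and 1.59, and Itgb1 177 and 157.

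**Figure D5:**
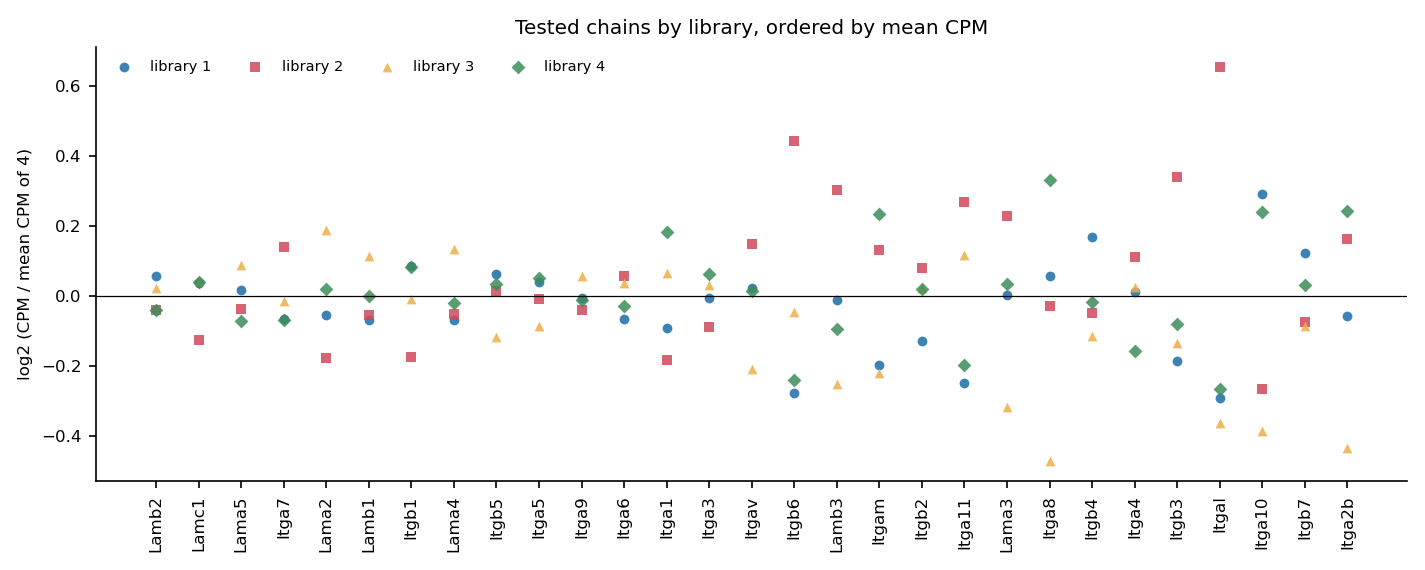
Log2 of CPM over its mean of 4 libraries for 29 tested members, with 1 symbol per library and members ordered by mean CPM from Lamb2 on the left to Itga2b on the right. Members of at least 100 CPM stay close to 0, and library 2 stands highest for Itgal and Itgb6.

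The partners of these chains were taken from lists of genes that bind or act with them. In the basement membrane, the heparan sulphate proteoglycan Hspg2 (perlecan) stood at 125 ± 8.88 CPM per kilobase, Col4a1 at 111 ± 6.19 and Col4a2 at 99.7 ± 5.30, against 131 ± 4.45 for Lamb2. The bridging protein Nid1 had 258, 203, 269.6 and 254 CPM, lowest in library 2. Of the 17 genes in that list 15 reached 1 CPM, and 0 were called in edgeR. An unadjusted p under 0.05 was found for 4 of the 15 (26.7%), against 5.96% of all tested genes. That share was 25% for the endothelial and the fibroblast markers and 37.5% for those of smooth muscle and pericytes. It was 0% for the cardiomyocyte, leukocyte, platelet and Schwann markers. Among other integrin ligands Mfge8 had 32.3 ± 2.04 CPM per kilobase, Vtn (vitronectin) 19.5 ± 1.57 and Icam2 12.0 ± 0.962, while fibronectin, Fn1, stood at 109, 131, 121 and 113 CPM. Of that list 12 of 16 reached 1 CPM and 0 were called, with 1 (8.33%) at an unadjusted p under 0.05 in edgeR.

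Among laminin receptors other than integrins and the complex around dystroglycan, several genes stood above every integrin chain per kilobase of exon. Dag1, dystroglycan, which carries the sugar chains that laminin binds, had 675, 651, 715 and 712 CPM, or 108 ± 4.88 CPM per kilobase. The glypican Gpc1 stood at 156 ± 6.18 and Sgca, a sarcoglycan of the dystrophin complex, at 109.9 ± 3.70 CPM per kilobase. Rpsa, at 164 ± 7.68 CPM per kilobase, is chiefly a ribosomal protein and belongs to a family with processed pseudogenes, so its count is uncertain. All 18 genes of this list reached 1 CPM, 0 were called and 1 (5.56%) had an unadjusted p under 0.05 in edgeR.

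Inside the cell, the list of integrin activators and adhesion proteins reached 1 CPM for 31 of 33 genes found. Actn2, the sarcomeric alpha-actinin of Z discs, led it at 763 ± 68.7 CPM per kilobase, followed by the tensin Tns1 at 166 ± 9.64 and the filamin Flnc at 102 ± 9.13. Itgb1bp2 (melusin), a muscle protein that binds the tail of Itgb1, had 164, 179.8, 163 and 176 CPM, or 95.03 ± 4.63 CPM per kilobase. The talin Tln1 stood at 40.3 ± 0.996 and integrin-linked kinase, Ilk, at 32.6 ± 0.971 CPM per kilobase, near Itgb1 and Itgb5. Of the kindlins, which switch integrins on, Fermt2 had 139, 127, 141 and 151 CPM, the leukocyte form Fermt3 8.05, 8.55, 4.85 and 7.16 CPM, and the epithelial form Fermt1 3, 1, 0 and 1 counts. In edgeR 0 of the 31 were called, with 1 (3.23%) at an unadjusted p under 0.05.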

How the data were processed

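Each library came with 1 table of whole-number counts by gene symbol, as the authors deposited it, without normalization. Per the labels' protocols the libraries are single-end and not strand-specific, so reads of genes that overlap on opposite strands are mixed. The submitters' processing notes name the build mm10 and, with no roles, the aligners TopHat2 2.0.10, TopHat and Bowtie2 and the packages HTSeq, edgeR and DESeq. Which annotation and which HTSeq mode were used is not given in the sources used here. The 5 closing rows that name no gene, 9.16 ± 0.145% of the listed total, were left out; the row for alignments that were not unique made up 8.33% of that total, so genes with near-identical copies may be undercounted.

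CPM used the total of gene counts per library. Exon lengths and positions are from GENCODE M21 (GRCm38, which mm10 denotes), matched by symbol or a RefSeq synonym for 22996 of 23420 genes (98.2%). Length is the union of exons. Spread between libraries used edgeR 4.0.16 in R 4.3.3, an intercept only, TMM factors, trended dispersion and a robust prior: each quasi-dispersion, divided by its trend, was compared with an F distribution (3 residual degrees of freedom, 7.28 for the prior), adjusted by Benjamini-Hochberg over all genes of at least 1 CPM. The script was tested on simulated data. Alternatives were other size factors, no filter, a prior that is not robust, limma 3.58.1, DESeq2 1.42.0, other lengths, other totals and left-out libraries. The rule for named genes took all 37 members (1 of them enters sums and counts and is not reported here on its own), both genes of each pair and, from each list, any called gene and the 3 with the highest CPM per kilobase; marker lists of cell types are given by sums and counts instead. Genes named beyond the rule (Nid1, Ntn1, Frem2, Fn1, Dag1, Itgb1bp2, Tln1, Ilk, the kindlins and single markers such as Cd3e and Ptprc) were chosen after their values were seen. The members, lists and pairs were chosen with earlier results of these data known.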

Additional observations from a re-analysis of the deposited data

Results flagged for a closer look

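In 47 values checked (37 members' CPM and 10 sums and shares), 5 had a library whose gap to its nearest neighbour took up more of the range of the 4 than the 95% critical value of Dixon's test allows. Chance gives about 1 such value in 20. Library 2 was apart for 4 of the 5: Itgal was high there, at 4.81 CPM, and Lamc1 low, at 410.3 CPM, as were the share of Itgb1 among beta chains, 47.2%, and of Lamc1 among gamma chains, 97.6%. Library 1 was apart for the share of Lama4 among laminin alpha chains, at 16.2%. Since Itgb1 and Lamc1 each enter their own share, these are not independent values.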

How the results depend on the processing

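No integrin or laminin chain passed the test of spread under any setting run, whereas the count over all genes moved with the method: 49 with the settings reported, 258 with no filter on low counts, 10 with a prior that is not robust, 8 with limma-voom, 129 as DESeq2 dispersion outliers and 0 in libraries 1 and 4 only, and from 37 to 65 when 1 library was left out. Since 0 genes of any kind were called in libraries 1 and 4 only, that setting cannot set the members apart from other genes. A total without the ribosomal transcript Rn45s raised the integrin sum to 1134 CPM and the laminin sum to 2504 CPM. With the longest transcript as length, Itga7 made up 50.7% of integrin alpha chains, Lama5 44.3%, Lama2 29.6% and Lama4 25.2% of laminin alpha chains, Lamb2 80.9% of beta and Lamc1 97.2% of gamma chains. No paired ratio changed direction under any setting run, libraries 1 and 4 only among them, which for the ratios was chosen after seeing the data; there Lamc1 over Lamc3 was 325-fold in place of 583. No paired analysis was possible because the libraries form 1 group. Depth limits the members under 1 CPM, which rest on 0 to 17 counts a library, and with 4 libraries the smallest sign-flip p is 0.13 (rounded).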

Other observations

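Several genes with similar names fall outside the symbol rule and are no integrin chains, or not of the named set. Itgbl1, a secreted protein with integrin-like repeats, had 3.61, 2.66, 4.56 and 4.43 CPM in libraries 1 to 4. Itgb2l, a relative of Itgb2, had 0, 1, 0 and 0 counts. Itgb1bp1, which binds the tail of Itgb1 and competes with its activators, stood at 17.8 ± 0.583 CPM, and Itgb3bp, a centromere protein, had 1, 6, 4 and 5 counts. Ntn1, a netrin with a laminin-like end, had 167, 220.1, 184 and 169 CPM, with library 2 the highest. Frem2, an extracellular protein of embryonic basement membranes, had 48.3, 73.9, 73.5 and 46.4 CPM, so libraries 2 and 3 stood above libraries 1 and 4, with an adjusted p of 0.164 in edgeR.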
